A study of Mus musculus with 18 samples.

Results

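The genes described here are those of cholesterol synthesis and its control by the transcription factor SREBP-2, encoded by Srebf2, in the livers of 3 mouse lines. The set was given as a list of 30 symbols: 4 regulators, 8 enzymes of the mevalonate steps, 12 enzymes of the squalene and sterol steps, 3 genes of cholesterol uptake and transport, and 3 sterol exporters. Of the 17721 genes tested in the series, 29 belonged to the set, and each of these 29 was above background on all 18 arrays. Npc1l1, the sterol importer that the list also names, was above background on 1 array and was not tested. The question was how each of these genes differed between a mutant group and the control group of its own line.

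SREBP-2 is made as a precursor that sits in the membrane of the endoplasmic reticulum, bound to the escort protein SCAP. When sterols are plentiful, INSIG1 and INSIG2 hold SCAP in that membrane. When sterols run low, SCAP carries the precursor to the Golgi, where it is cut, and the released factor turns on the genes of cholesterol synthesis and uptake. The liver makes cholesterol by this route and disposes of it in bile, partly through the transporter formed by ABCG5 and ABCG8, whose genes are targets of the oxysterol receptors LXR.

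The 18 liver samples came from females at 6 weeks of age and formed 6 groups of 3. The Nrf1 CKO group had the genotype Nrf1(dN/-)::Alb-Cre, in which Cre is driven by the albumin promoter and so acts in hepatocytes, and the Nrf1 Control group was Nrf1(dN/+) and carried the dN allele too. The strain of both Nrf1 groups was mixed. The Nrf2 KO group was Nrf2(-/-) and the Nrf2 Control group was Nrf2(+/+), both on C57BL/6. The Keap1 KD group was Keap1(Kd/-) and the Keap1 Control group was Keap1(Kd/+), both of mixed strain, so the controls of this line carried the Kd allele as well. NRF1 and NRF2 are related stress-responsive transcription factors, and KEAP1 is the protein that targets NRF2 for degradation. The labels leave unsaid if replicates came from different animals, so p-values measure the spread between samples, which may be technical.

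Each sample was hybridised to 1 single-colour Agilent array, and between 21668 and 28213 of 43379 gene spots per array were well above background. A level below is a log2 signal relative to the 75th percentile of its own array, and a change is the difference of 2 group means on that log2 scale, mutant minus control. The targeted genes followed the labels. Nfe2l1, which encodes NRF1, averaged -6.44 ± 0.20 in Nrf1 CKO livers, where it was above background on 0 of 3 arrays, and 3.72 ± 0.18 in Nrf1 Control livers (SD, n = 3 each). Nfe2l2, which encodes NRF2, averaged -4.88 ± 1.5 in Nrf2 KO livers, above background on 1 of 3 arrays, and 3.32 ± 0.20 in Nrf2 Control livers. Keap1 averaged 1.80 ± 0.06 in Keap1 KD livers and 4.19 ± 0.80 in Keap1 Control livers. The 10 hepatocyte markers tested were above background in every group. Nrf1 arrays shared 1 scan date. The Nrf2 groups shared neither a slide nor a scan date, so slide or date and genotype cannot be told apart within that line.

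The promoters of 4 genes are shown: those of Mvk and Hmgcs1, the members whose arrays separated in opposite directions in Nrf2 KO and Keap1 KD livers, and those of Tm7sf2 and Ebp, the synthesis enzymes that fell in Nrf1 CKO livers. Each is the 250 bases before the transcription start, from RefSeq on GRCm38.p6, written 5′ to 3′ on the strand of the gene: Mvk at chr5:114444019-114444268 on the plus strand, Hmgcs1 at chr13:119690101-119690350 on the plus strand, Tm7sf2 at chr19:6067851-6068100 on the minus strand, and Ebp at chrX:8193513-8193762 on the minus strand. Capitals mark matches, on either strand, to 3 motifs: TCACNCCAC, a form of the sterol regulatory element bound by SREBP; CCAAT, bound by NF-Y, a factor that acts together with SREBP; and TGACNNNGC, the core of the antioxidant response element bound by NRF1 and NRF2 with small MAF proteins.
Mvk: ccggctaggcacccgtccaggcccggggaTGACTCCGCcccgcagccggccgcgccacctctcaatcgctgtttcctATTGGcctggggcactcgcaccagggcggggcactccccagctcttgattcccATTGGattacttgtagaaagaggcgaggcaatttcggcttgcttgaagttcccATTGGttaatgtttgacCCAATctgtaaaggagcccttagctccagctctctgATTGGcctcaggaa
Hmgcs1: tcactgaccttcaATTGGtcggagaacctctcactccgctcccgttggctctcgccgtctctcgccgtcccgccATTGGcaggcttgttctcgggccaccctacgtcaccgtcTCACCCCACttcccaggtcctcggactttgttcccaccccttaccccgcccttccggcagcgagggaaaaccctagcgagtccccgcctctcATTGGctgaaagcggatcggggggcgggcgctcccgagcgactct
Tm7sf2: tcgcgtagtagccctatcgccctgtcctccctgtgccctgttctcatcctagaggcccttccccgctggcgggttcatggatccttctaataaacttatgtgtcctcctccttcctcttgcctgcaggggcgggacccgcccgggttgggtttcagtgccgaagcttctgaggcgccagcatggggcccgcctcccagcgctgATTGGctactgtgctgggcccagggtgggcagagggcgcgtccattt
Ebp: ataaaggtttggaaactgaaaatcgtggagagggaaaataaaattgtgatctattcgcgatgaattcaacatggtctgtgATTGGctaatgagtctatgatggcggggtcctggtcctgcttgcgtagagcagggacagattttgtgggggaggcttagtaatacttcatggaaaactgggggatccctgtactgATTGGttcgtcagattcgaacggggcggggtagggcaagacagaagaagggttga
In the Mvk promoter the capitals mark 1 match to the antioxidant response element core, TGACTCCGC, which begins 221 bases before the start, and 5 CCAAT matches. In the Hmgcs1 promoter they mark 1 sterol regulatory element, TCACCCCAC, which begins 137 bases before the start, and 3 CCAAT matches, which read ATTGG because they lie on the opposite strand. The motifs were counted in RefSeq windows that run from 250 bases before to 50 bases after the start, which were at hand for 26 of the 30 genes and not for Fdft1, Sqle, Fdps and Stard4. Some genes had several windows, and the 26 genes had 33 windows between them. CCAAT was present for 23 of the 26 genes and in 23 of their 33 windows, against 37.4% of the 32851 mouse windows of the same length. TCACNCCAC was present for 1 of the 26, Hmgcs1, in 1 of the 33 windows, against 1.24% of all windows. TGACNNNGC was present for 4 of the 26, Mvk, Pmvk, Dhcr7 and Hsd17b7, in 4 of the 33 windows, against 12.4% of all windows. These matches describe letters in a window, and binding was not measured.

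In Nrf1 CKO livers, 5 of the 29 genes changed at an adjusted p under 0.05. Scap, Tm7sf2, Ebp and Abcg8 fell and Ggps1 rose. Over all genes tested, 18.9% changed in this comparison, 7.99% higher and 10.9% lower, so the count for the set lies near the background. The median change of the 29 genes was -0.19, with 10 above 0 and 19 below 0, against a median of -0.09 over all genes, of which 57.2% were below 0. On 2 genes the CKO arrays all lay above the control arrays and on 7 they all lay below, against 15.3% and 28.1% of all genes. Adjusted p-values throughout are from limma with Benjamini-Hochberg adjustment over all genes of a comparison.

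**Figure D1:**
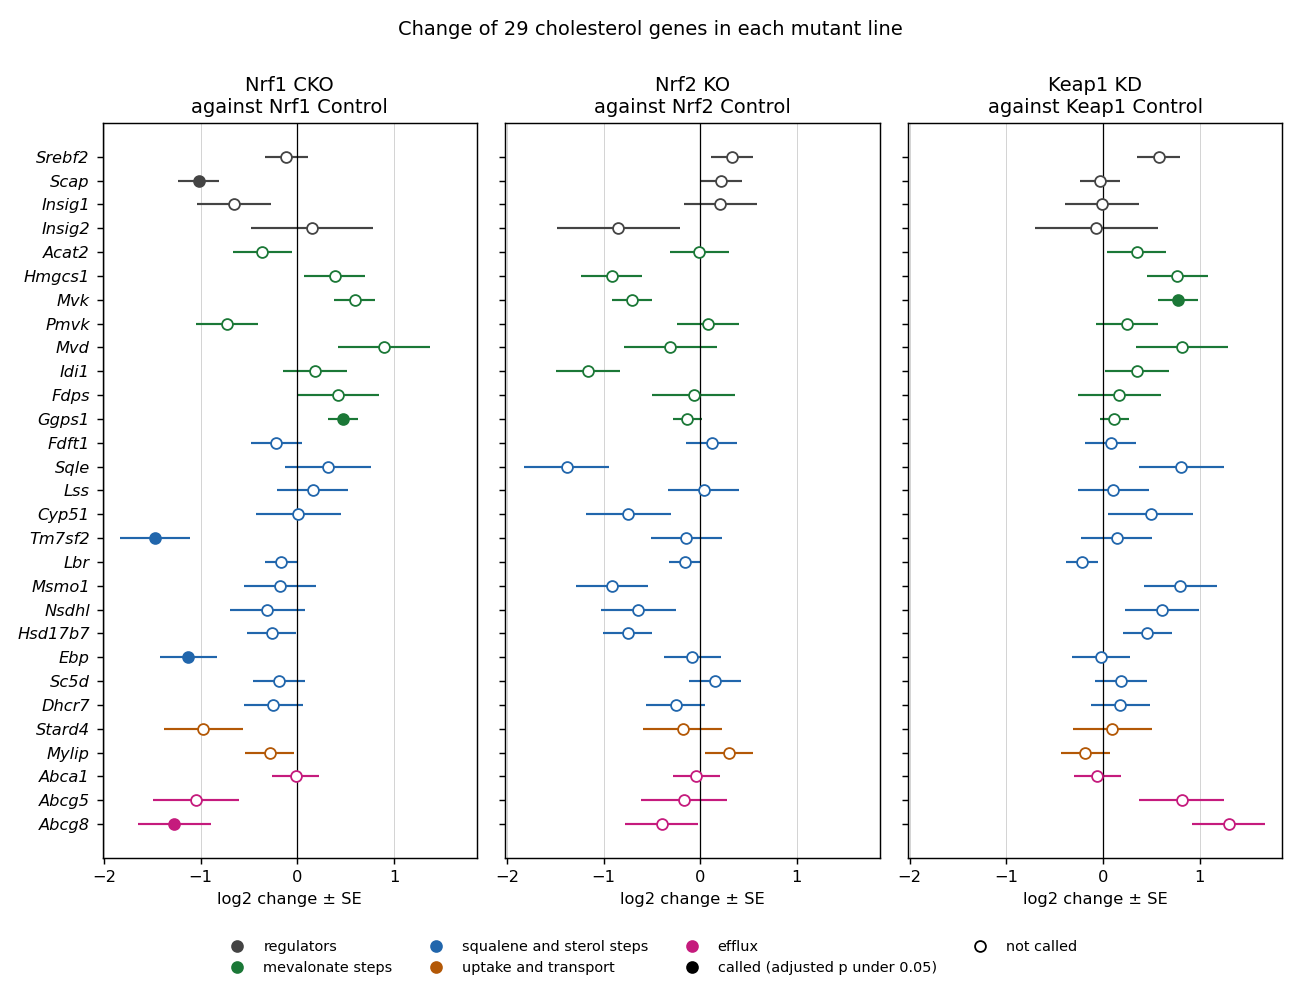
Log2 change, mutant minus control, of 29 cholesterol genes in the 3 lines (x axis), with 1 row per gene and colour for its role. Bars are the standard error of the limma fit and filled points are the genes with an adjusted p under 0.05, which are Scap, Ggps1, Tm7sf2, Ebp and Abcg8 in Nrf1 CKO livers and Mvk in Keap1 KD livers.

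Among the regulators, Scap, the SREBP escort, had levels of 5.33, 4.80 and 4.64 in Nrf1 CKO livers, against 6.10, 5.75 and 5.99 in Nrf1 Control livers. All 3 CKO arrays were below all 3 control arrays, and the change was -1.02 (SE 0.21, adjusted p = 0.0057, limma), or -0.65 with normexp and quantile (adjusted p = 0.0353). Srebf2 itself was at -1.93, -1.72 and -1.70 in CKO livers, against -1.62, -1.78 and -1.61 in control livers. These groups overlapped and differed by -0.12 (SE 0.22, adjusted p = 0.755). Insig1, a sterol sensor partner that is also a classic SREBP target, was at 1.84, 1.5 and 0.46 in CKO livers, against 2.30, 1.70 and 1.78 in control livers. CKO replicate 3 was the lowest array, the groups overlapped, and the change of -0.66 did not pass (SE 0.38, adjusted p = 0.236). Insig2, the second retention protein, was at 4.02, 4.86 and 5.22 in CKO livers, against 4.90, 4.52 and 4.23 in control livers, with overlap and a change of 0.15 (SE 0.63).

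The 8 mevalonate enzymes, which carry acetyl-CoA to isoprenoid diphosphates, had a median change of 0.40 in Nrf1 CKO livers, with 6 above 0 and 2 below. The gene that passed was Ggps1, geranylgeranyl diphosphate synthase, which draws the route towards protein prenylation and not towards sterols. It was at -0.48, -0.02 and -0.07 in CKO livers, against -0.62, -0.58 and -0.79 in control livers. The groups did not overlap, and the rise was 0.47 (SE 0.15, adjusted p = 0.0423). A second Ggps1 probe gave 0.47 and did not pass (adjusted p = 0.127 over probes). The Ggps1 call was lost in 6 of the 12 other settings, with adjusted p-values up to 0.248. Mvk, mevalonate kinase, was at -0.28, -0.23 and -0.30 in CKO livers, against -0.40, -0.85 and -1.34 in control livers. The CKO arrays lay above all control arrays, which were widely spread, and the change of 0.59 did not pass (SE 0.21, adjusted p = 0.0598). A second Mvk probe gave 0.61 and passed (adjusted p = 0.0441 over probes). Among the alternatives Mvk was called only with the mean of all probes (0.0449), with genes above background on all arrays (0.0463) and without control replicate 1 (0.0283). Mvd, the mevalonate diphosphate decarboxylase, had the largest positive value, 0.90 (SE 0.48), with overlapping groups and an adjusted p of 0.195. Pmvk, phosphomevalonate kinase, went the other way at -0.73 (SE 0.32, adjusted p = 0.123), at 4.46, 4.58 and 3.65 in CKO livers against 5.23, 4.64 and 5.0 in control livers. Hmgcs1, the synthase that opens the committed route, had a log2 change of 0.39 (adjusted p = 0.406). Acat2, Idi1 and Fdps, which make acetoacetyl-CoA, isomerise the isoprenoid unit and build farnesyl diphosphate, had log2 changes of -0.36, 0.18 and 0.42, none of them past the threshold.

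The 12 squalene and sterol enzymes had a median change of -0.20 in Nrf1 CKO livers, with 3 above 0 and 9 below. Tm7sf2 and Ebp passed, both lower. Tm7sf2 is one of the pair of sterol C14-reductases. It was at 5.48, 5.09 and 4.10 in CKO livers, against 6.63, 5.97 and 6.51 in control livers. Every CKO array was below every control array, CKO replicate 3 was the lowest, and the fall was -1.48 (SE 0.36, adjusted p = 0.0138). Lbr, the lamin B receptor and the other C14-reductase, was at 1.65, 1.46 and 1.28 in CKO livers, against 1.59, 1.60 and 1.69 in control livers, with overlap and a change of -0.17 (SE 0.17). Ebp, the sterol isomerase that acts after C4-demethylation, was at 8.02, 7.71 and 7.39 in CKO livers, against 8.97, 8.85 and 8.69 in control livers. These groups did not overlap and differed by -1.13 (SE 0.30, adjusted p = 0.0177). The call was lost with quantile normalization (-0.61, adjusted p = 0.0795) and with normexp and quantile (-0.58, adjusted p = 0.172). The enzymes just upstream, Fdft1, Sqle, Lss and Cyp51, which make squalene, oxidise it, close the ring and remove the first methyl group, had log2 changes of -0.22, 0.31, 0.16 and 0.01. Msmo1, Nsdhl and Hsd17b7, which remove the C4 methyl groups, had log2 changes of -0.18, -0.31 and -0.27. Sc5d and Dhcr7, which act late in the route, had a log2 change of -0.19 and -0.25. The adjusted p of these 9 genes lay above the threshold, and their groups overlapped.

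Of the exporters, Abcg8 fell in Nrf1 CKO livers. It was at 0.58, -0.41 and -0.26 in CKO livers, against 1.15, 1.31 and 1.28 in control livers. The 3 control arrays lay close together and above all CKO arrays, and the change was -1.28 (SE 0.38, adjusted p = 0.0306). A second Abcg8 probe gave -0.95 and did not pass (adjusted p = 0.155 over probes), and the call was lost with the mean of all probes (0.0692) and without the background filter (0.0612). Its partner Abcg5 was at 6.61, 4.84 and 5.65 in CKO livers, against 6.58, 6.85 and 6.81 in control livers. CKO replicate 1 lay among the controls, and the change of -1.05 did not pass (SE 0.44, adjusted p = 0.106). Abca1, which loads cholesterol onto apolipoprotein A-I, had a log2 change of -0.02 (SE 0.24). Stard4, a carrier of cholesterol between membranes, was at 2.06, 1.49 and 0.52 in CKO livers, against 2.73, 2.19 and 2.07 in control livers. Its groups just failed to meet, and the change of -0.97 did not pass (SE 0.41, adjusted p = 0.103). Mylip, the ubiquitin ligase that degrades lipoprotein receptors, was below its controls on every CKO array by a mean of 0.29 on the log2 scale (change -0.29, SE 0.25, adjusted p = 0.446).

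**Figure D2:**
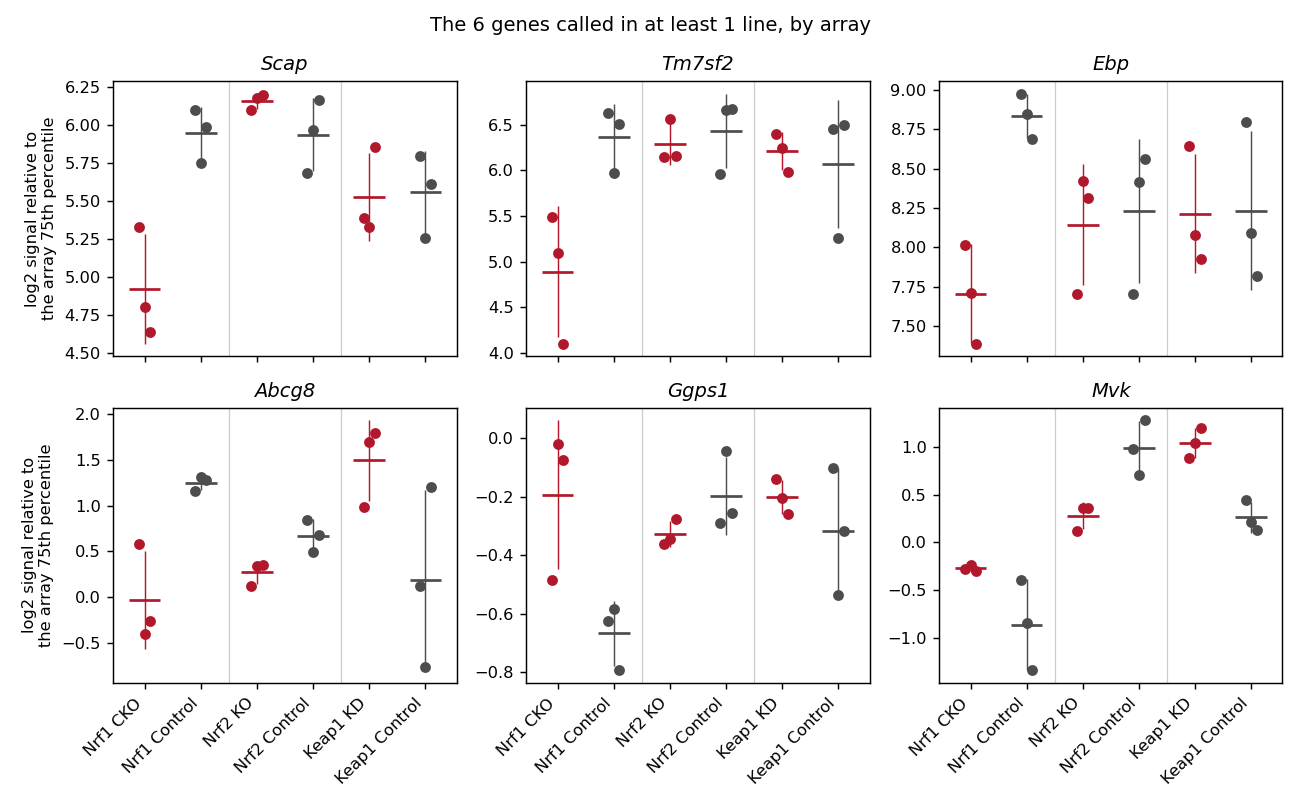
Log2 level relative to the array's 75th percentile (y axis) of the 6 genes that passed the threshold in at least 1 line, for the 6 groups with each mutant left of its control. Points are arrays, horizontal lines are group means and vertical lines are 1 SD (n = 3). Scap, Tm7sf2, Ebp and Abcg8 were lower on every Nrf1 CKO array than on any Nrf1 Control array, and Mvk was higher on every Keap1 KD array and lower on every Nrf2 KO array than in the matching controls.

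Marker genes of liver cell types also differed in the Nrf1 CKO livers. Of 10 hepatocyte markers tested, 6 fell, and their mean level was 5.46 to 6.17 over the CKO arrays and 6.43 to 6.67 over the control arrays. All 8 stellate cell markers rose (mean level 1.15 to 1.81 in CKO and 0.18 to 0.44 in control livers), as did all 6 proliferation genes (0.97 to 1.09 in CKO and -1.35 to -0.66 in control livers). Of 7 macrophage markers 3 rose, Marco, Trem2 and Gpnmb, and Gpnmb was tested only because it was above background on the CKO arrays. Over the 6 macrophage markers above background on every array the mean level was 3.14 to 4.24 in CKO and 2.18 to 3.03 in control livers, ranges that nearly met. None of the 5 cholangiocyte markers passed, 1 of 4 lymphocyte markers rose and 1 of 6 endothelial markers fell. The part of these cells in the changes of the cholesterol genes was not tested, and in bulk liver fewer hepatocytes and less RNA per hepatocyte cannot be told apart.

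The slide also bears on this line. Nrf1 Control replicates 1 and 2 were on a slide of their own, and the third control was on the slide of all 3 CKO arrays. Within that shared slide the differences were -1.06 for Scap, -1.61 for Tm7sf2, -0.99 for Ebp, -1.31 for Abcg8 and 0.60 for Ggps1, 3 CKO arrays against 1 control. With the slide as a fixed block no cholesterol gene passed, and Scap had an adjusted p of 0.153. Of all 17721 genes 3348 passed in the main fit. The number was 65 to 3583 over the 12 other settings, the slide block among them. It was 939 to 4160 over the fits that left out an array. Scap passed whichever of the 6 arrays was left out. Without CKO replicate 3 it was the 1 gene of the set that passed, and the adjusted p was 0.0848 for Tm7sf2, 0.095 for Ebp, 0.124 for Abcg8 and 0.164 for Ggps1. Without CKO replicate 2 the genes that passed were Scap and Tm7sf2, and without control replicate 2 or 3 they were Scap, Tm7sf2 and Ebp. Without control replicate 1 Scap passed, and so did Mvk, with a change of 0.82 (adjusted p = 0.0283). Abcg8 and Ggps1 each passed in 1 of the 6 fits that left out an array.

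In Nrf2 KO livers none of the 29 genes passed the threshold, where 0.0621% of all genes did (11 of 17721), 0.00564% higher and 0.0564% lower. At an unadjusted p under 0.05, 6 cholesterol genes were lower and 0 were higher, against 8.89% of all genes in either direction. The median change of the set was -0.16, with 8 above 0 and 21 below, against 0.01 over all genes, of which 49.0% were below 0. On 10 of the 29 genes every KO array was below every control array, against 11% of all genes, and on 0 every KO array was above, against 9.81%. These 10 were Hmgcs1, Mvk, Idi1, Sqle, Cyp51, Msmo1, Nsdhl, Hsd17b7, Insig2 and Abcg8, 8 of them synthesis enzymes.

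Sqle, squalene epoxidase, the first oxygen-requiring step, had the lowest value in this comparison. It was at 1.42, 2.03 and 2.79 in Nrf2 KO livers, against 3.0, 3.51 and 3.87 in Nrf2 Control livers, a change of -1.38 (SE 0.44, adjusted p = 0.355). Idi1, isopentenyl-diphosphate isomerase, was at 3.30, 4.18 and 3.81 in KO livers, against 4.60, 4.99 and 5.19 in control livers, a change of -1.16 (SE 0.33, adjusted p = 0.306). Hmgcs1 was at 5.05, 5.28 and 5.16 in KO livers, against 5.67, 6.33 and 6.25 in control livers, a change of -0.92 (SE 0.32, adjusted p = 0.391). All 3 enzymes separated by array, yet none passed across all genes. Mvk was at 0.12, 0.36 and 0.36 in KO livers, against 0.98, 0.70 and 1.28 in control livers, a change of -0.71 (SE 0.21, adjusted p = 0.312), and its second probe had a log2 change of -0.64. Msmo1 and Hsd17b7, both of the C4-demethylation complex, had a log2 change of -0.91 (SE 0.38, adjusted p = 0.502) and -0.75 (SE 0.25, adjusted p = 0.390). Cyp51 had a log2 change of -0.74 and Nsdhl by -0.64, with adjusted p of 0.670 and 0.682. Their other probes gave values from -1.16 to -0.63.

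The genes that passed in the Nrf1 line did not pass here. Scap was at 6.10, 6.18 and 6.2 in Nrf2 KO livers, against 5.68, 5.97 and 6.16 in Nrf2 Control livers, with overlap and a change of 0.22 (SE 0.21). Tm7sf2 was at 6.15, 6.56 and 6.16 in KO livers, against 5.96, 6.66 and 6.67 in control livers (change -0.14, SE 0.36). Ebp was at 7.71, 8.42 and 8.31 in KO livers, against 7.71, 8.42 and 8.56 in control livers (change -0.08, SE 0.30). These 3 genes overlapped between the groups. Abcg8 was at 0.13, 0.34 and 0.35 in KO livers, against 0.85, 0.49 and 0.67 in control livers, a change of -0.40 (SE 0.38, adjusted p = 0.829). The second Abcg8 probe had a log2 change of -0.08. Ggps1 was at -0.36, -0.35 and -0.28 in KO livers, against -0.29, -0.05 and -0.26 in control livers (change -0.13, SE 0.15).

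Of the other regulators, Srebf2 was at -0.45, -0.14 and -0.57 in Nrf2 KO livers, against -1.05, -0.76 and -0.34 in Nrf2 Control livers, with overlap and a change of 0.33 (SE 0.22, adjusted p = 0.724). Insig1 was at 1.43, 2.19 and 2.54 in KO livers, against 2.09, 1.83 and 1.61 in control livers, also overlapping (change 0.21, SE 0.38). Insig2 was at 3.12, 2.59 and 2.61 in KO livers, against 3.44, 3.74 and 3.67 in control livers. It separated by array but had a wide standard error (change -0.85, SE 0.63, adjusted p = 0.767). The remaining genes, Acat2, Pmvk, Mvd, Fdps, Fdft1, Lss, Lbr, Sc5d, Dhcr7, Stard4, Mylip, Abca1 and Abcg5, had log2 changes from -0.31 for Mvd to 0.30 for Mylip. Probes disagreed in sign for Stard4 (-0.18 on the probe used, 0.36 and 0.27 on the others) and Fdft1 (0.12 on the probe used, -0.32 on the other). No marker of another liver cell type passed in this comparison. The 6 proliferation genes had a mean level of -1.44 to -0.75 over the Nrf2 KO arrays and -0.62 to -0.04 over the Nrf2 Control arrays, and none passed. Hepatocyte markers averaged 6.71 to 6.83 on KO and 6.49 to 6.68 on control arrays, and endothelial markers 1.33 to 1.59 and 1.13 to 1.31. Lymphocyte markers averaged -2.06 to -1.95 and -2.73 to -2.25, and macrophage markers 1.47 to 1.63 and 1.68 to 1.79. For lymphocyte and macrophage markers above background on every array the ranges overlapped. The part of these lists in the values of the cholesterol genes was not tested.

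**Figure D3:**
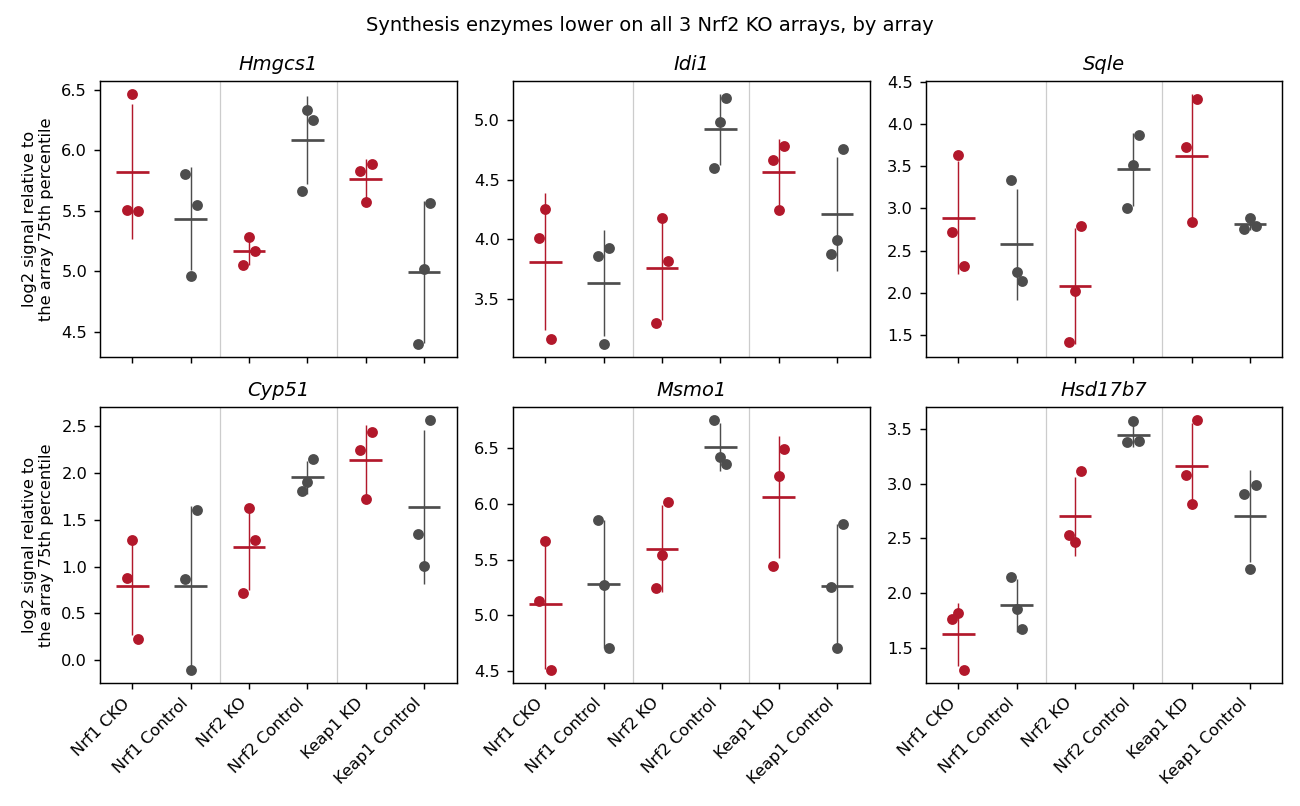
Log2 level relative to the array's 75th percentile (y axis) of 6 synthesis enzymes in the 6 groups, each mutant left of its control. Points are arrays, horizontal lines are group means and vertical lines are 1 SD (n = 3). The 6 were picked because their 3 Nrf2 KO arrays lay below the 3 Nrf2 Control arrays. That held for 3 of 8 mevalonate enzymes and 5 of 12 squalene and sterol enzymes, and no adjusted p passed the threshold.

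In Keap1 KD livers 1 of the 29 genes passed, Mvk, which was higher, where 5.52% of all genes passed, 0.948% higher and 4.58% lower. The median change of the set was 0.19, with 22 above 0 and 7 below, against 0.00 over all genes, of which 50.1% were above 0. All 8 mevalonate enzymes had values above 0 (median 0.35), as did 10 of the 12 squalene and sterol enzymes (median 0.19). On 3 genes, Mvk, Hmgcs1 and Srebf2, every KD array was above every control array, against 5.57% of all genes, and on 0 every KD array was below, against 11.4%. Subtracting the array median in place of the 75th percentile moved the median of all genes to 0.29 in this line, and that of the set to 0.48. With that scaling 29 of the 29 genes were above 0, against 76.2% of all genes.

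Mvk was at 0.88, 1.05 and 1.2 in Keap1 KD livers, against 0.44, 0.21 and 0.13 in Keap1 Control livers. The groups were well apart, and the rise was 0.78 (SE 0.21, adjusted p = 0.0409). The second Mvk probe had a log2 change of 0.57 and did not pass (adjusted p = 0.133 over probes). The call was lost in 7 of the 12 other settings, with adjusted p-values up to 0.145, and in 5 of the 6 fits that left out an array, those without control replicate 2 or 3 or any KD replicate (0.0657 to 0.141). The change itself stayed between 0.68 and 1.07. It was 1.07 within the slide that held 1 KD and 1 control array, and 1.03 within the scan date that held 1 KD and 2 control arrays.

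Hmgcs1 was at 5.83, 5.57 and 5.89 in Keap1 KD livers, against 4.40, 5.02 and 5.56 in Keap1 Control livers, a change of 0.77 (SE 0.32, adjusted p = 0.213). Control replicate 3 almost met the lowest KD array. Srebf2 was at -0.53, -0.68 and 0.18 in KD livers, against -0.80, -0.87 and -1.09 in control livers, a change of 0.58 (SE 0.22, adjusted p = 0.170). KD replicate 3 stood above the other arrays. Sqle, Mvd and Msmo1 had log2 changes of 0.81, 0.82 and 0.80, all with overlapping groups and adjusted p from 0.296 to 0.436. Idi1, Cyp51, Nsdhl and Hsd17b7 had log2 changes of 0.35, 0.50, 0.61 and 0.46, and none passed.

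The sterol exporters were widely spread between arrays of this line. Abcg8 was at 0.99, 1.69 and 1.79 in Keap1 KD livers, against 0.12, -0.76 and 1.2 in Keap1 Control livers. Control replicate 3 overlapped with the KD arrays, and the change of 1.30 stood just outside the threshold (SE 0.38, adjusted p = 0.0574), with 1.14 on the second probe. Abcg5 was at 6.51, 7.43 and 7.09 in KD livers, against 6.63, 5.05 and 6.91 in control livers, a change of 0.81 (SE 0.44, adjusted p = 0.391). Control replicate 2 was the lowest array for both exporters. Insig2 had its 2 highest values in this line, 5.68 in KD replicate 1 and 5.65 in control replicate 2, while the other KD arrays were at 3.13 and 3.45 and the other controls at 3.84 and 2.97 (change -0.07, SE 0.63).

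Scap was at 5.39, 5.33 and 5.86 in Keap1 KD livers, against 5.80, 5.26 and 5.62 in Keap1 Control livers (change -0.03, SE 0.21). Insig1 was at 1.53, 1.90 and 1.75 in KD livers, against 2.13, 0.94 and 2.15 in control livers (change -0.01, SE 0.38). Tm7sf2 was at 6.40, 6.25 and 5.98 in KD livers, against 6.45, 5.26 and 6.50 in control livers (change 0.14, SE 0.36). All 3 overlapped between the groups. Ebp was at 8.64, 8.08 and 7.93 in KD livers, against 8.79, 8.09 and 7.82 in control livers (change -0.02, SE 0.30). Ggps1 was at -0.14, -0.20 and -0.26 in KD livers, against -0.10, -0.54 and -0.32 in control livers (change 0.12, SE 0.15). The other genes of the set had log2 changes from -0.21 for Lbr to 0.35 for Acat2. The Stard4 probes disagreed in sign here (0.10 on the probe used, -0.44 and -0.35 on the others). Of the cell type markers, Trem2 of macrophages and Lyve1 of endothelium rose and Lum of stellate cells fell, and their part in the Mvk change was not tested.

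The 3 effects were then set against each other as differences in the same fit, which share no control array between lines. Scap differed between the Nrf1 and Nrf2 effects by -1.24 (SE 0.30, adjusted p = 0.0273), with changes of -1.02 in Nrf1 CKO and 0.22 in Nrf2 KO livers. Mvk also differed between them, by 1.30 (SE 0.30, adjusted p = 0.0231). These 2 were the genes of the set that passed in this comparison, where 5.58% of all genes did, 3.01% with a positive and 2.57% with a negative difference. Without Nrf1 CKO replicate 2 or 3, or without Nrf2 KO replicate 1, no gene of the set passed, and 1 gene passed without Nrf1 Control replicate 1, without Nrf2 Control replicate 1 or 3, and without Nrf2 KO replicate 2 or 3.

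Between the Keap1 and Nrf2 effects Mvk differed by 1.49 (SE 0.30, adjusted p = 0.0181), the 1 gene of the set that passed where 3.09% of all genes did, 1% with a positive and 2.09% with a negative difference. It passed in 11 of the 12 fits that left out an array, with an adjusted p of 0.0551 without Nrf2 KO replicate 1. The number of genes of the set was 2 without Nrf2 Control replicate 1 or Keap1 KD replicate 2, and 3 without Keap1 Control replicate 3. The differences of Hmgcs1 (1.69, SE 0.45, adjusted p = 0.0557), Sqle (2.19, SE 0.63, adjusted p = 0.0744), Hsd17b7 (1.21, SE 0.36, adjusted p = 0.0865), Idi1 (1.52, SE 0.47) and Msmo1 (1.71, SE 0.53) did not pass. Between the Nrf1 and Keap1 effects Abcg8 differed by -2.58 (SE 0.53, adjusted p = 0.0170), the 1 gene of the set where 6.92% of all genes passed, 3.56% with a positive and 3.36% with a negative difference. It was not called without Nrf1 CKO replicate 3 (adjusted p = 0.0516), and 4 genes passed without Nrf1 CKO replicate 1 or without Keap1 Control replicate 1. The differences of Scap (-0.99, adjusted p = 0.0547), Tm7sf2 (-1.62, adjusted p = 0.0663) and Abcg5 (-1.86, adjusted p = 0.0775) lay near the threshold. None of the differences that passed did so with the slide or the scan date as a fixed block, where adjusted p-values reached 0.204 for Scap and 0.331 for Mvk (Nrf1 minus Nrf2), 0.235 for Mvk (Keap1 minus Nrf2) and 0.206 for Abcg8 (Nrf1 minus Keap1).

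**Figure D4:**
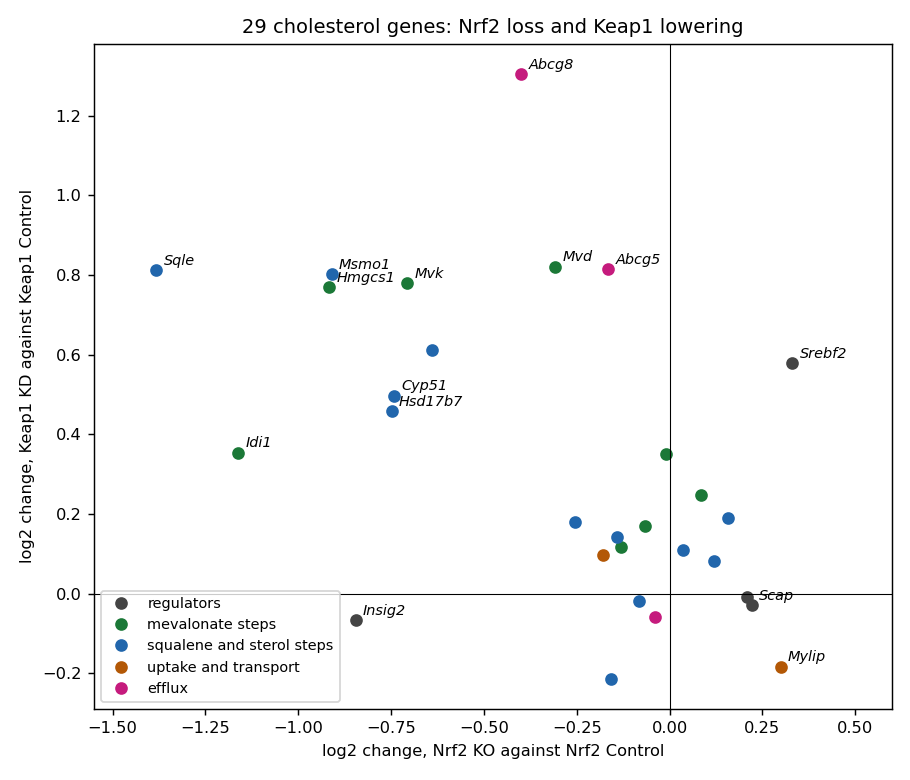
Log2 change of 29 cholesterol genes in Nrf2 KO livers (x axis) and in Keap1 KD livers (y axis), coloured by role, each against the control of its own line. Of the 29 points, 17 lie in the upper left, below 0 in Nrf2 KO and above 0 in Keap1 KD livers. Among them Sqle lies farthest left (-1.38 on x, 0.81 on y) and Abcg8 highest (-0.40 on x, 1.30 on y).

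Of the 29 genes, 17 had a value below 0 in Nrf2 KO livers and above 0 in Keap1 KD livers, against 27.6% of all genes (4889 of 17721). Some of the 17 lay near 0 in Nrf2 KO livers, such as Acat2 (-0.01) and Fdps (-0.07). Stard4 is among the 17 on the probe used, while its other probes had the opposite sign in both lines. Pearson's r between the 2 sets of changes was -0.51 over the 29 genes. The count of 17 and r are descriptions across genes that share arrays and are not independent. The count was 22 with the array median (46.7% of all genes) and 15 with quantile normalization (26.1%). With the slide as a fixed block it was 8 (19.6% of all genes) and r was 0.05, and with the scan date it was 10 (17.7%) and r was 0.08. In those fits the median change of the set in Nrf2 KO livers was 0.43 and 0.16, an estimate that passes through Keap1 arrays on the same slides or dates. In Keap1 KD livers it was 0.31 and 0.50.

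The wider group of cholesterol genes outside the set held 36 listed genes, of which 33 were tested. In Nrf1 CKO livers 2 rose and 4 fell, with a median of -0.18 over the 33, a count near the background of 18.9% of all genes. Abcg1, an LXR target that exports cholesterol from macrophages, rose by 1.15 (SE 0.25, adjusted p = 0.0080), at 0.92, 0.98 and 1.34 in CKO livers against -0.52, 0.32 and -0.01 in control livers. Soat1, the cholesterol esterifying enzyme of macrophages and many other cells, rose by 0.84 (SE 0.25, adjusted p = 0.0316), at 0.48, 1.26 and 1.23 in CKO livers against -0.08, 0.64 and -0.10 in control livers. Soat1 overlapped between the groups and Abcg1 did not.

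The genes that fell supply substrates and electrons or remodel phospholipids. Acly, which makes cytosolic acetyl-CoA from citrate, was at 1.32, 1.43 and 0.69 in Nrf1 CKO livers, against 2.85, 2.31 and 2.06 in Nrf1 Control livers (change -1.26, SE 0.35, adjusted p = 0.0231). Acss2, which makes it from acetate, was at 2.68, 2.94 and 1.89 in CKO livers, against 4.42, 3.60 and 3.66 in control livers (change -1.39, SE 0.46, adjusted p = 0.0480). Por, the electron donor of Cyp51 and Sqle, was at 7.05, 6.15 and 6.27 in CKO livers, against 7.58, 7.47 and 7.62 in control livers (change -1.06, SE 0.31, adjusted p = 0.0299). Lpcat3, an LXR target, was at 3.11, 2.78 and 2.82 in CKO livers, against 3.81, 3.64 and 3.80 in control livers (change -0.85, SE 0.20, adjusted p = 0.0122). None of these 4 overlapped between the groups.

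Both LXR genes, Nr1h2 and Nr1h3, and the sister factor gene Srebf1 did not pass in any line. Srebf1 had a log2 change of -0.67 in Nrf1 CKO, 1.01 in Nrf2 KO and -0.41 in Keap1 KD livers. None of the 33 genes passed in Nrf2 KO or in Keap1 KD livers, where their medians were -0.00 and 0.02. Between the Nrf1 and Nrf2 effects Lpcat3 differed by -1.19 (adjusted p = 0.0295) and Stard3, a late endosomal cholesterol carrier, by -0.76 (adjusted p = 0.0438).

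The control groups themselves differed in level. For 7 of the 29 genes, Srebf2, Mvk, Mvd, Fdps, Ggps1, Hsd17b7 and Stard4, all 3 Nrf1 Control arrays were below all 6 other control arrays, against 10.4% of all genes. For 0 of the 29 they were above, against 13.2%. Fdps averaged 2.32 ± 0.38 in Nrf1 Control livers, 4.23 ± 0.61 in Keap1 Control livers and 4.51 ± 0.53 in Nrf2 Control livers (SD, n = 3 each). Stard4 averaged 2.33 ± 0.35, 3.72 ± 0.58 and 4.20 ± 0.56 in the same order. The Nrf1 arrays had a scan date of their own, so line and scan date cannot be told apart, and no test was made.

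Within groups the synthesis enzymes varied together from array to array. Over the deviations of the 18 arrays from their group means, the 190 pairs among the 20 enzymes had a median Pearson's r of 0.40, and 85.8% of the pairs were above 0. The median with all other genes was -0.01. The highest of the 406 pairs among the 29 genes was Idi1 with Cyp51 (r = 0.91, Spearman's rho = 0.92), followed by Fdft1 with Msmo1 (r = 0.90, rho = 0.88). Abcg5 and Abcg8, which lie next to each other in the genome and form one transporter, had r = 0.88. These arrays share slides and scan dates, and the pairs were picked by size, so the values are a description.

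The lowest pair was Insig2 with Abcg8 (r = -0.89, rho = -0.90). Without Keap1 Control replicate 2 and Keap1 KD replicate 1, the arrays farthest out on Insig2, r was -0.85. It was -0.84 over the 6 Nrf1 arrays, -0.87 over the 6 Nrf2 arrays and -0.90 over the 6 Keap1 arrays. The pair was picked as the lowest over these same arrays, so these values describe it and are not separate evidence. Insig2 with Abcg5 had r = -0.82, and -0.73 without the same 2 arrays.

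**Figure D5:**
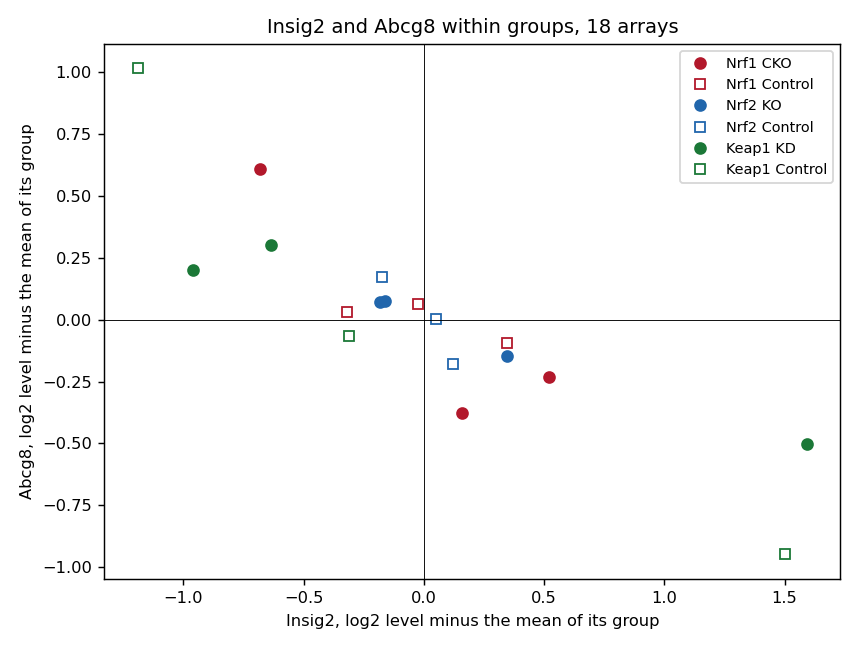
Level of Insig2 (x axis) and of Abcg8 (y axis) on each of 18 arrays, both as log2 values minus the mean of the array's group. Filled circles are mutant and open squares are control arrays, coloured by line. The arrays run from the upper left to the lower right, with Keap1 Control replicate 2 and Keap1 KD replicate 1 at the far right.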

How the data were processed

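RNA of 18 mouse liver samples was measured on single-colour Agilent arrays. Per the file headers, images were read with Agilent Feature Extraction 10.7.3.1 (build mm9), and the deposited processed-signal intensities were background-subtracted but not normalized between arrays. The authors' series table held the same intensity values at 810324 of 810324 entries. Deposited flags gave the spots above background and the outlier spots, which were left out (45 to 156 per array), as were 1639 control spots.

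Spots of a probe were averaged as log2 intensities and scaled by the 75th percentile of the array. Probes above background on all 3 arrays of a group were tested, and the brightest represented its gene. Symbols came from RefSeq (GRCm38.p6), used for names, promoter positions and promoter sequences. A linear model with 6 group means, on all 18 arrays, was fitted in limma 3.58.1 (R 4.3.3), with Benjamini-Hochberg adjustment over 17721 genes and a threshold of 0.05. The number of arrays, 3 a group, limits the precision (median SE 0.244). No pairing by the replicate numbers in the titles was evident. Correlations of deviations lay between -0.36 and 0.15 for same numbers and between -0.41 and 0.37 for different numbers. Fits were tested on simulated data. Alternatives covered scaling, background, filter, probes, samples, slide, scan date, replicate block and each array left out. Per-array values are given for genes called in at least 1 comparison and the 4 regulators. Of other cholesterol genes those called are named, up to 4 per list and comparison by size. Other genes given with values (such as Lbr, Abcg5, Sqle and Srebf1) were picked after their values were seen. The genes and lists were chosen with earlier results of these data known.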

Additional observations from a re-analysis of the deposited data

Results flagged for a closer look

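The effects of 2 mutations differed past the threshold for 3 genes. Over all genes 5.58% passed for Nrf1 minus Nrf2, 6.92% for Nrf1 minus Keap1 and 3.09% for Keap1 minus Nrf2. None of the differences below passed with the slide or the scan date as a fixed block. That of Scap passed in 5 of the 12 fits that left out an array. For Scap the Nrf1 effect minus the Nrf2 effect was -1.24 (adjusted p = 0.0273, limma), and Scap was lower on 3 of 3 Nrf1 CKO arrays than on any Nrf1 Control array. For Mvk the Nrf1 effect minus the Nrf2 effect was 1.30 (adjusted p = 0.0231), and the Keap1 effect minus the Nrf2 effect was 1.49 (adjusted p = 0.0181). For Abcg8 the Nrf1 effect minus the Keap1 effect was -2.58 (adjusted p = 0.017).

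For 2 genes every mutant array moved one way in one line and the opposite way in another. The share of all genes that did so was not counted. In single lines the arrays separated higher or lower for 15.3% or 28.1% of all genes in Nrf1 CKO livers. These shares were 9.81% or 11% in Nrf2 KO and 5.57% or 11.4% in Keap1 KD livers. Mvk was higher on all 3 Nrf1 CKO arrays (0.59) and all 3 Keap1 KD arrays (0.78) and lower on all 3 Nrf2 KO arrays (-0.71), and the tests of these differences are those given above. Hmgcs1 was lower on all 3 Nrf2 KO arrays (-0.92) and higher on all 3 Keap1 KD arrays (0.77), and the test of this difference gave an adjusted p of 0.0557.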

How the results depend on the processing

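Of 3654 single-gene values under alternatives, 3557 kept their side of the threshold, 69 lost a call and 28 gained one. No called value changed sign. Of the 3557, 275 changed sign, all of them uncalled. The values of single genes in the 3 differences between effects, and the paired signs, were added after seeing the data. In Nrf1 CKO livers 5 genes were called, 3 without the background filter and 0 with the slide as a fixed block, and 1 to 7 with an array left out. In Keap1 KD livers 1 gene was called, 2 with the array median and 0 with quantile normalization, no background filter, the mean of all probes, the slide or scan date as a fixed block, the arrays of that line alone or the replicate block, and 0 to 1 with an array left out. In Nrf2 KO livers 0 were called in every setting run, and the median change of -0.16 was 0.43 with the slide and 0.16 with the scan date as a fixed block. For the Nrf1 minus the Nrf2 effect 2 were called, 1 with quantile normalization and 0 with the array median, no filter, slide or scan date, and 0 to 3 with an array left out. For the Nrf1 minus the Keap1 effect 1 was called, 5 with the array median, 2 with genes above background on all arrays and 0 with slide, scan date or the compared lines alone, and 0 to 4 with an array left out. For the Keap1 minus the Nrf2 effect 1 was called, 5 with the array median, 2 with the mean of all probes and 0 with no filter, slide or scan date, and 0 to 3 with an array left out. With the slide fixed, the Nrf1 estimate rests on 1 control array by construction, and the cause of the other shifts was not tested.

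Over all genes, the planned settings called 65 to 3583 in Nrf1 CKO (3348 in the report), 6 to 22 in Nrf2 KO (11) and 52 to 1000 in Keap1 KD livers (979), and 8 to 1842 (988), 11 to 2580 (1226) and 27 to 555 (548) for the differences in the order above. With an array left out the numbers were 939 to 4160, 6 to 12, 350 to 1048, 294 to 2131, 263 to 2312 and 175 to 652, in the same order. The median of all genes with the array median was -0.20 in Nrf1 CKO and 0.29 in Keap1 KD livers. No pairing by replicate number was evident. With the replicate block 4 genes of the set were called in Nrf1 CKO and 0 in Keap1 KD livers, where the adjusted p of Mvk was 0.061. As a random block the slide had a consensus correlation of -0.016 and changed no count of called genes of the set.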
